A study of Mus musculus with 64 samples.

Results

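Genes of the adrenergic and histamine receptor families were followed through every library of the series. They were picked by gene symbol from the deposited isoform tables and were the α1-adrenergic receptor genes Adra1a, Adra1b and Adra1d, the α2-adrenergic receptor genes Adra2a and Adra2c, the β1-adrenergic receptor gene Adrb1, and the histamine receptor genes Hrh1, Hrh2 and Hrh3. They are 9 of 46785 genes in the tables and hold 26 of 112714 transcripts. All 9 genes passed the filter on low values (a mean of at least 0.1 FPKM in either tissue), as did 37034 genes in all.

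Noradrenaline reaches the forebrain from the locus coeruleus and histamine from the tuberomammillary nucleus of the hypothalamus, and both act through receptors coupled to G proteins. The α1 and H1 receptors couple to Gq and phospholipase C, the β1 and H2 receptors to Gs and adenylyl cyclase, and the α2 and H3 receptors to Gi/o, which lowers cyclic AMP. The α2 and H3 receptors also sit on the axons that release the transmitters and hold back their release. Among the drugs used here, mianserin and risperidone are known to bind α-adrenergic and H1 receptors, venlafaxine blocks the reuptake of serotonin and noradrenaline, methamphetamine releases monoamines, haloperidol blocks mainly dopamine D2 receptors and ketamine blocks NMDA receptors.

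Adult male C57BL/6N mice, 8 to 10 weeks old, received 1 intraperitoneal injection and were killed 2 h later. The doses were 1 mg/kg haloperidol, 0.5 mg/kg risperidone, 2 mg/kg methamphetamine, 16 mg/kg venlafaxine, 20 mg/kg mianserin and 20 mg/kg ketamine, in saline, to which a drop of HCl was added for haloperidol and risperidone only. RNA depleted of ribosomal RNA was sequenced from the nucleus accumbens (NAc) and the prefrontal cortex (PFCx) in 64 libraries, with 8 after saline and 4 after each drug in either tissue. In the labels, 4 saline libraries of each tissue belong to set I and the other 4 to set II. They do not state whether the NAc and the PFCx came from the same mice or whether replicates are single animals, so p-values measure the spread between these libraries.

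Libraries of 2 sample sets stood apart before any drug was considered. Set I held saline I, haloperidol, risperidone and methamphetamine, and set II held saline II, mianserin, venlafaxine and ketamine. The labels name the sets only for saline, and the drugs were placed by the number of transcripts listed above 0 in the NAc, 85287 to 87827 in set I and 107099 to 110556 in set II. The first principal component separated the sets in both tissues, with 40.7% of the variance in the NAc and 46.7% in the PFCx. Drug results are therefore given against all saline libraries of the tissue, and most of them also against the 4 of the same set. The aligned bases behind a library, estimated from the coverage, were 1.98 to 3.26 gigabases in the NAc and 1.52 to 2.95 in the PFCx.

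The dissections carried the markers of their labels. All 9 markers of striatal projection neurons were higher in the NAc, where their summed level was 567 to 766 FPKM against 26.3 to 82.9 in the PFCx, and all 7 of cortical projection neurons were higher in the PFCx, at 172 to 222 FPKM against 27.5 to 72.1. The 4 oligodendrocyte markers were also higher in the NAc (445 to 619 against 117 to 160 FPKM). Of all genes, limma called 7.16% as higher and 26.8% as lower in the NAc. Of the remaining lists, 2 of 4 astrocyte markers were lower and 2 of 3 microglial markers higher in the NAc, 1 of 3 interneuron markers was higher and 1 lower, 1 of 3 choroid plexus markers was higher and 2 lower at summed levels of at most 1.76 FPKM, and none of the 4 endothelial and mural markers passed the test. The cell bodies that make noradrenaline and histamine lie outside both tissues, and 0 of 3 of their markers (Dbh, Slc6a2 and Hdc) differed over both saline sets. Their summed levels were 0.207 to 0.424 FPKM in NAc saline set I and 0.787 to 1.96 in NAc set II. In the PFCx they were 0.723 to 1.18 in set I and 0.815 to 1.37 in set II. The part of these cell types in the receptor levels was not tested, and in bulk tissue fewer cells of a type cannot be told apart from less RNA per cell.

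After saline, 6 of the 9 receptor genes were lower and 2 were higher in the NAc than in the PFCx, and Adra2a alone did not pass the test. The tissue difference was tested with limma on log2(FPKM + 1), a scale that understates the change of low genes, with Benjamini-Hochberg adjustment over all genes. The same test called 33.9% of all genes, 7.16% as higher and 26.8% as lower in the NAc, so that a lower level in the NAc was the more common direction among all genes too. That split depended on the scaling, since 2653 genes were higher and 9911 lower as deposited, 3555 and 7270 with libraries scaled to the same 75th percentile, and 4194 and 4779 from the read coverage. The median over all genes was −0.10 on the log2 scale as deposited and −0.01 from the coverage. The directions of the 8 receptor genes were the same under all 3.

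**Figure D1:**
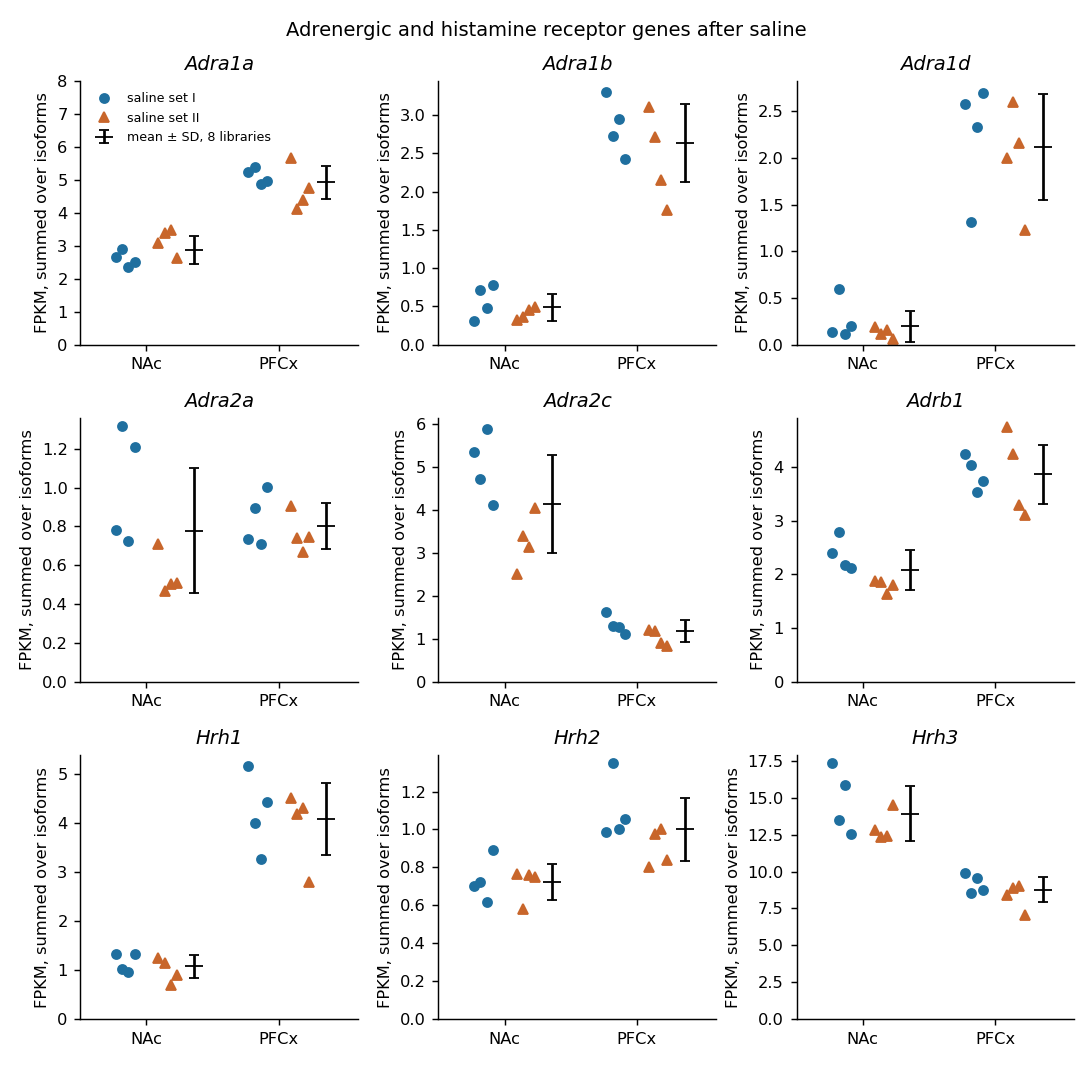
Summed FPKM of each receptor gene (y axis, from 0) in the 8 NAc and 8 PFCx libraries after saline. Blue circles are saline set I, orange triangles saline set II, and the black bar is the mean with its SD over 8 libraries. The tissues overlap for Adra2a and Hrh2 and are separate for the other 7 genes.

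The α1 receptor genes were all lower in the NAc. Adra1a (ENSMUSG00000045875, chr14:66635251-66771168, plus strand, GRCm38) was at 2.37 to 3.49 FPKM in the NAc, with a median of 2.77, and at 4.13 to 5.65 FPKM in the PFCx, with a median of 4.93. No NAc library reached the lowest PFCx library. Mean levels were 2.88 ± 0.41 and 4.92 ± 0.51 FPKM (SD, n = 8 each), 1.71-fold higher in the PFCx, and the log2 difference (NAc minus PFCx) was −0.61 ± 0.07 (SE) with an adjusted p of 3.15e-06 in limma.

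Adra1b (ENSMUSG00000050541, chr11:43774606-43901210, minus strand), which encodes the α1B receptor, stood further apart. Its NAc libraries lay between 0.305 and 0.782 FPKM with a median of 0.467, and its PFCx libraries between 1.76 and 3.29 FPKM with a median of 2.71. The ranges were separate, the means differed 5.40-fold (0.489 ± 0.176 against 2.64 ± 0.51 FPKM, SD, n = 8 each), and the log2 difference was −1.28 ± 0.09 with a limma adjusted p of 1.02e-08.

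Adra1d (ENSMUSG00000027335, chr2:131545850-131562283, minus strand), the α1D receptor gene, had the lowest level of the 9 genes in the NAc. It was at 0.0606 to 0.594 FPKM there, with a median of 0.150, and at 1.23 to 2.69 FPKM in the PFCx, with a median of 2.25. The NAc libraries all lay below the PFCx libraries, and the highest NAc library, saline I-2, stood above the next one at 0.196 FPKM. On the log2 scale the difference was −1.37 ± 0.11 with a limma adjusted p of 6.60e-08. The fold between the means was 10.8 over all saline libraries, 8.58 in set I and 15.0 in set II. As few as 69.4 aligned bases stood behind this gene in a NAc library, so the size of the fold is uncertain while the ranges do not overlap. Adra1d overlaps a gene on the opposite strand, Gm14285, and whether reads were counted by strand is not given in the sources used here.

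The α2 receptor genes did not go together. Adra2c (ENSMUSG00000045318, chr5:35278319-35281763, plus strand), the α2C receptor gene, was at 2.5 to 5.88 FPKM in the NAc with a median of 4.07, and at 0.826 to 1.63 FPKM in the PFCx with a median of 1.20. Every NAc library was above every PFCx library. The means were 4.14 ± 1.14 and 1.18 ± 0.25 FPKM (SD, n = 8 each), 3.51-fold higher in the NAc, with a log2 difference of 1.21 ± 0.12 and a limma adjusted p of 7.43e-07.

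Adra2a (ENSMUSG00000033717, chr19:54044151-54048982, plus strand), the gene of the α2A receptor, was at 0.470 to 1.32 FPKM in the NAc and 0.671 to 1.00 FPKM in the PFCx, and the ranges overlapped. The log2 difference was −0.03 ± 0.09, with a 95% confidence interval from −0.23 to 0.16 and a limma adjusted p of 0.783. Its mean was 1.21-fold higher in the NAc in saline set I (1.01 against 0.835 FPKM) and 1.39-fold higher in the PFCx in set II (0.549 against 0.765 FPKM).

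Adrb1 (ENSMUSG00000035283, chr19:56722199-56733113, plus strand), the β1 receptor gene, was at 1.64 to 2.80 FPKM in the NAc with a median of 2.00, and at 3.11 to 4.76 FPKM in the PFCx with a median of 3.89. The tissues did not overlap. The means were 2.09 ± 0.37 and 3.87 ± 0.55 FPKM (SD, n = 8 each), 1.86-fold higher in the PFCx, with a log2 difference of −0.66 ± 0.08 and a limma adjusted p of 8.73e-06.

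The H1 and H3 receptor genes lay in opposite directions. Hrh1 (ENSMUSG00000053004, chr6:114397936-114483296, plus strand), the gene of the receptor blocked by sedating antihistamines, was at 0.689 to 1.32 FPKM in the NAc with a median of 1.08, and at 2.80 to 5.16 FPKM in the PFCx with a median of 4.24. The tissues were separate, at 1.07 ± 0.23 and 4.08 ± 0.74 FPKM on average (SD, n = 8 each), 3.81-fold higher in the PFCx. The log2 difference was −1.29 ± 0.09 with a limma adjusted p of 1.25e-08.

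Hrh3 (ENSMUSG00000039059, chr2:180099465-180104488, minus strand), the H3 receptor gene, had the highest level of the 9 genes in both tissues. It was at 12.4 to 17.4 FPKM in the NAc with a median of 13.2, and at 7.07 to 9.91 FPKM in the PFCx with a median of 8.81. All NAc libraries were above all PFCx libraries, the means were 13.9 ± 1.9 and 8.76 ± 0.85 FPKM (SD, n = 8 each), and the log2 difference was 0.61 ± 0.08 with a limma adjusted p of 8.74e-06. Hrh3 overlaps Gm17180 on the opposite strand, which bears on its level in the same way as for Adra1d.

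Hrh2 (ENSMUSG00000034987, chr13:54192129-54236180, plus strand), the H2 receptor gene, showed the smallest of the called differences. Its level was 0.580 to 0.890 FPKM in the NAc, with a median of 0.736, and 0.803 to 1.35 FPKM in the PFCx, with a median of 0.994, and the ranges overlapped. By limma the log2 difference was −0.21 ± 0.05 with a limma adjusted p of 0.00602. The adjusted p was 0.136 in saline set II alone and 0.187 when read coverage scaled to depth was used in place of FPKM. Hrh2 overlaps the opposite-strand gene Gm16578.

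A two-sided exact permutation test of the 8 against 8 saline libraries gave p = 0.000155, the smallest that 12870 splits allow, for each of the 7 genes with separate ranges, where 8.5% of all genes had ranges that did not overlap. For Hrh2 this exact test gave p = 0.000777. The order of the mean levels, per length of transcript, was Hrh3, Adra2c, Adra1a, Adrb1, Hrh1, Adra2a, Hrh2, Adra1b and Adra1d in the NAc, from high to low. Of the neighbours in this order only Hrh3 and Adra2c, and Adrb1 and Hrh1, had ranges that did not overlap. In the PFCx the order was Hrh3, Adra1a, Hrh1, Adrb1, Adra1b, Adra1d, Adra2c, Hrh2 and Adra2a, and only Hrh3 was separate from its neighbour. Adra2c thus came just after Hrh3 in the NAc and near the end of the order in the PFCx.

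RefSeq promoter windows on GRCm38.p6 are shown for 3 genes that were all higher in the PFCx, at the first listed start of each. Each is the 100 bases before an annotated start, 5′ to 3′ on the gene's strand, with the letters GGGCGG or CCGCCC of a GC box, the CRE core letters TGACG or CGTCA and TATAAA or TTTATA of a TATA box in capitals. The Adra1b window is chr11:43901238-43901337 (minus strand), that of Adrb1 chr19:56722017-56722116 (plus strand) and that of Hrh1 chr6:114397836-114397935 (plus strand).
Adra1b: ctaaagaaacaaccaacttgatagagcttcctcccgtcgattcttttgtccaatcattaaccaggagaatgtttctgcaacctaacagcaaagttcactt
Adrb1: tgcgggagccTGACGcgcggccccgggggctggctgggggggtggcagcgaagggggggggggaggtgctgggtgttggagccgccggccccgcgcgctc
Hrh1: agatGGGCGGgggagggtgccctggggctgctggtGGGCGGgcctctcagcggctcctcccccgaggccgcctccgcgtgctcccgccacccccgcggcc
In the 250 bases before the same starts, Adra1b held 3 CpG dinucleotides, Adrb1 24 and Hrh1 21, against a median of 6 over 32851 promoters. A GC box was found before Adrb1 and Hrh1 and not before this start of Adra1b, and 32.7% of all promoters hold one in 250 bases. The CRE core letters before Adrb1 are shared with 17.8% of promoters, and none of these 3 windows held the TATA letters, which 12.4% of promoters hold. Other listed starts of Adra1b and Hrh1 differed from the ones shown, since the window of the second Adra1b start held 22 CpG and a GC box, and those of the other 3 Hrh1 starts held 32, 3 and 1 CpG, the last 2 of them without a GC box. Such matches are letters in a window and describe no binding.

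Most single transcripts were low. Of the 26 transcripts 23 passed the filter, and 14 of these differed between tissues, 3 higher and 11 lower in the NAc, where 13.7% of all transcripts did. For Adra1b all 3 transcripts were lower in the NAc, where ENSMUST00000067258 was under 0.01 FPKM in 6 of 8 saline libraries. Its 4-exon form ENSMUST00000139906 was at 0.310 ± 0.180 FPKM in the NAc and 1.58 ± 0.50 FPKM in the PFCx (SD, n = 8 each), and its 2-exon form ENSMUST00000167574, which starts further inside the gene, at 0.157 ± 0.058 and 0.855 ± 0.157 FPKM. Of the gene's summed FPKM the former took 60.3% (NAc) and 58.9% (PFCx), the latter 34.6% and 33.3%.

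For Hrh3, the 3-exon coding transcript ENSMUST00000056480 took 70.0 ± 4.4% of the gene in the NAc and 67.3 ± 5.1% in the PFCx (SD, n = 8 each). A transcript annotated as a retained intron, ENSMUST00000166392, took 23.5 ± 3.6% and 24.5 ± 4.1%. Both were higher in the NAc, with limma adjusted p of 0.00012 and 0.00327, and their shares differed between tissues by less than their SD.

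For Adra1a, 2 of 5 transcripts were called, and the largest share was that of ENSMUST00000159068 with 37.3% in the NAc and 38.3% in the PFCx. For Hrh1, 3 of 5 were called. The short form ENSMUST00000160212, of 476 bases and 2 exons, was at 0.222 ± 0.221 FPKM in the NAc and 1.31 ± 0.51 FPKM in the PFCx, and took 18.1 ± 16.8% and 31.2 ± 7.4% of the gene. Isoforms of 1 gene share reads and several Hrh1 and Adra1a forms were listed near 0 in single NAc libraries, so these shares vary widely there. Adra1d, Adra2a, Adra2c, Adrb1 and Hrh2 have 1 listed transcript each.

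**Figure D2:**
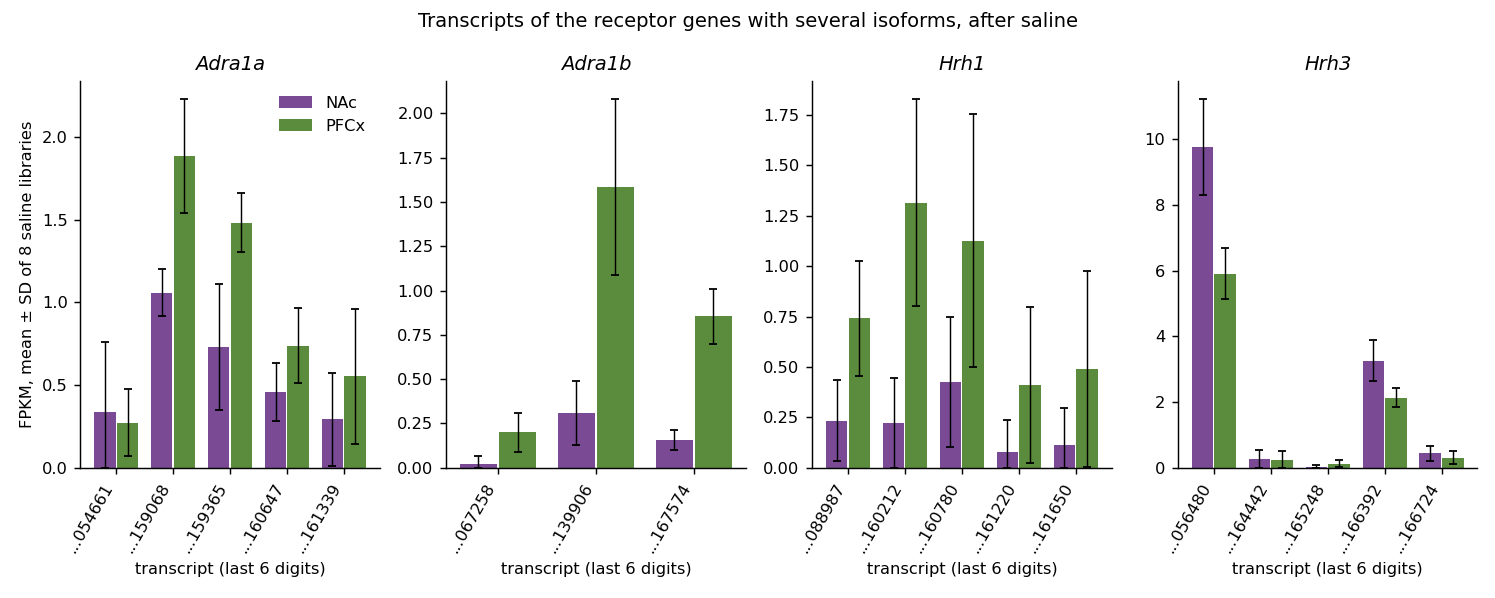
Mean FPKM with SD (lower bars end at 0) of the transcripts of Adra1a, Adra1b, Hrh1 and Hrh3 that passed the filter, in 8 NAc (purple) and 8 PFCx (green) saline libraries, with the last 6 digits of the transcript on the x axis and an own y scale for each gene. Hrh3 is carried mainly by 1 coding form (ENSMUST00000056480) and a retained-intron form (ENSMUST00000166392), and each Adra1b form is higher in the PFCx.

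In the NAc, 3 of the 9 genes passed the test of any drug effect against all 8 saline libraries, Adrb1 (limma F, adjusted p = 0.000536), Hrh3 (0.000722) and Adra2c (0.0052). That share lies near the background, since 36.9% of all genes were called. Against same-set saline, 0 of 9 were called where 1.63% of all genes were, with adjusted p of 0.648 for Adrb1, 0.24 for Hrh3 and 0.859 for Adra2c. By this limma F test against same-set saline 2 of 9 genes, Adra1b and Hrh3, had an unadjusted p under 0.05, of 0.0493 and 0.0124, as did 11.3% of all genes.

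Of the 3 genes, Adra2c and Adrb1 also differed between the saline sets. Adra2c in the NAc was at 4.11, 4.73, 5.35 and 5.88 FPKM in saline set I and at 2.5, 3.13, 3.40 and 4.04 FPKM in saline set II. These 4 and 4 libraries did not overlap, and the log2 difference (set II minus set I) was −0.50 ± 0.13 with a limma adjusted p of 0.0386. Over drugs and saline, set I had 4.89 ± 0.62 and set II 3.17 ± 0.66 FPKM (SD, n = 16 each), with 13 of 16 set II libraries below all of set I.

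Adrb1 in the NAc was at 2.12, 2.17, 2.40 and 2.80 FPKM in saline set I and 1.64, 1.81, 1.86 and 1.88 FPKM in saline set II, again without overlap, with a log2 difference of −0.27 ± 0.07 and a limma adjusted p of 0.0391. Over all 16 libraries per set the levels were 2.64 ± 0.39 and 1.75 ± 0.32 FPKM (SD), and 12 of 16 set II libraries were below all of set I. Hrh3 was at 12.5, 13.5, 15.9 and 17.4 FPKM in saline set I and 12.4, 12.4, 12.8 and 14.5 FPKM in saline set II, which overlapped, with a log2 difference of −0.17 ± 0.10 and a limma adjusted p of 0.292. Over all libraries of a set Hrh3 was at 15.8 ± 1.7 and 13.0 ± 1.2 FPKM (SD, n = 16 each), and 7 of 16 were below.

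Of the 9 genes, Adra2c and Adrb1 were thus called between the saline sets of the NAc, where 17.2% of all genes were, and 0 of 9 in the PFCx, where 6.57% were (limma). In the PFCx 0 of 9 had an unadjusted p under 0.05, where 19.2% of all genes did. The NAc calls lay close to the threshold. Leaving out any 1 of the 8 saline libraries moved Adrb1 past it (limma adjusted p of 0.0503 to 0.0878), and leaving out any 1 of 6 of them did so for Adra2c (0.0688 to 0.0899). Over the fits without 1 of the 8 libraries, the log2 differences stayed at −0.30 to −0.21 for Adrb1 and −0.58 to −0.41 for Adra2c. The exact permutation test gave p = 0.0286, the smallest for 4 against 4, for Adra2a, Adra2c and Adrb1, the 3 of 9 genes whose saline sets did not overlap in the NAc, where 29.9% of all genes did not and 29.9% had an exact p under 0.05. In the PFCx 0 of 9 were separate, where 13.3% of all genes were. Summed cortical markers were at 53.4 to 72.1 FPKM in NAc saline set I and 27.5 to 49.0 in set II, and oligodendrocyte markers at 544 to 619 and 445 to 508. Their part in the receptor differences was not tested.

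**Figure D3:**
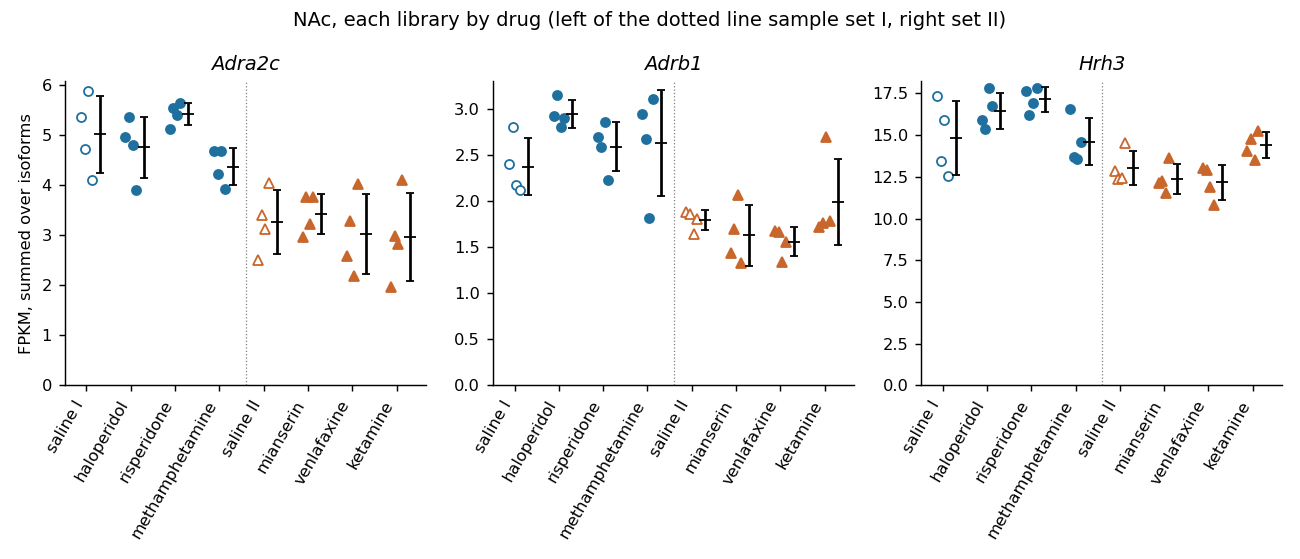
Summed FPKM (y axis, from 0) of Adra2c, Adrb1 and Hrh3 in each NAc library by treatment, with sample set I left and set II right of the dotted line. Open symbols are saline, filled symbols drugs, and bars the mean with SD of 4 libraries. For Adra2c, 13 of 16 set II libraries lie below all set I libraries.

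No single drug moved a receptor gene past the threshold in the NAc. Of the 54 pairs of gene and drug, 0 were called against all saline libraries by limma, where 1.21% of all tests were, and 0 against saline of the same set, where 0.297% were. An unadjusted p under 0.05 was found for 14 of 54 pairs against all saline (18.4% of all tests) and for 5 of 54 against the same set (7.09% of all tests). The lowest adjusted p was 0.0637, for Hrh3 after risperidone, with a log2 difference of 0.29 ± 0.07. Hrh3 was at 16.2, 16.9, 17.7 and 17.8 FPKM after risperidone, inside the saline range of 12.4 to 17.4 for 2 of 4 libraries, and the difference from saline set I was 0.21 ± 0.08 with an adjusted p of 0.557.

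Adrb1 in the NAc after haloperidol was at 2.81, 2.90, 2.92 and 3.15 FPKM, above all 8 saline libraries, of which the highest was at 2.80. The mean was 1.41-fold that of all saline libraries and 1.24-fold that of saline set I. The log2 difference was 0.36 ± 0.10 against all saline, with a limma adjusted p of 0.0833, and 0.23 ± 0.10 against set I, with an adjusted p of 0.751. The exact permutation test gave p = 0.00404 and 0.0286. Without methamphetamine replicate 3 or without saline I-2, the adjusted p against all saline was 0.0486 and 0.0287.

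Ketamine gave the largest difference of the NAc within a sample set. Adra1b was at 0.397, 0.876, 0.946 and 1.37 FPKM after ketamine and 0.316 to 0.494 FPKM in saline set II, so that 3 of 4 ketamine libraries were above and 1 was inside the saline range. Against that set the log2 difference was 0.41 ± 0.14 with an adjusted p of 0.246. Adra2a after ketamine (0.758 to 1.06 FPKM) was above its level in saline set II (0.470 to 0.708 FPKM). Adra1b after mianserin (0.555 to 0.787 FPKM) was above its own range in saline set II (0.316 to 0.494 FPKM). With Adrb1 after haloperidol these were the 3 of 54 NAc pairs without overlap within a set, where 3.6% of all pairs of gene and drug had none, and none was called. Against all saline libraries 1 of 54 did not overlap, where 1.39% of all pairs did not. Adra2a after ketamine lay inside the range of all 8 saline libraries (0.470 to 1.32 FPKM).

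In the PFCx, 0 of 9 genes passed the test of any drug effect, where 3.34% of all genes did, and 0 of 9 against the same sample set, where 1.45% did (limma F). An unadjusted p under 0.05 was found for 4 of 9 against all saline, where 16.7% of all genes had one, and for 2 of 9 against the same set, where 11.9% did. The lowest adjusted p was 0.0728 for Adra1a. Of 54 pairs 0 were called against all saline libraries, where 0.285% of all tests were, and 0 against the same set, where 0.767% were. Unadjusted, 8 of 54 had p under 0.05 against all saline (10.3% of all tests) and 7 of 54 against the same set (8.96% of all tests).

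Risperidone gave 4 of the 8 PFCx pairs with a low unadjusted p. Hrh3 was at 10.1, 10.7, 11.4 and 12.4 FPKM after risperidone, above all 8 saline libraries, whose highest was 9.91. Its mean was 1.27-fold that of saline and 1.21-fold that of set I. The exact permutation test gave p = 0.00202, the smallest for 4 against 8, and limma a log2 difference of 0.32 ± 0.10 with an adjusted p of 0.131. Against the 4 libraries of saline set I the exact permutation test gave p = 0.0286, the smallest for 4 against 4.

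Adra2c in the PFCx after risperidone was at 1.49, 1.61, 1.90 and 1.99 FPKM, with 2 of 4 libraries above the highest saline library at 1.63. The log2 difference was 0.34 ± 0.09 with an adjusted p of 0.0856, which was 0.0364 without saline I-1 and 0.0295 with the replicate number as a block, and against saline set I it was 0.24 ± 0.10 with an adjusted p of 0.693. Hrh1 was at 5.06, 5.25, 5.42 and 5.84 FPKM, 3 of 4 libraries above the highest saline library at 5.16, with a log2 difference of 0.34 ± 0.12. Adra1a was at 3.55, 3.81, 4.12 and 4.92 FPKM against 4.13 to 5.65 after saline, with a log2 difference of −0.22 ± 0.07. Below the saline range lay 3 of 4 libraries, the highest of them at 4.121 FPKM against 4.125 FPKM in the lowest saline library. Hrh1 and Adra1a had adjusted p of 0.172 and 0.167 in limma against all saline. Both overlapped the range of saline set I, against which the exact permutation test gave p = 0.0571 for each. Hrh1 was not high after risperidone only, at 4.61 to 6.12 FPKM after methamphetamine and 3.84 to 7.1 FPKM after ketamine. Against all saline its log2 differences after these 2 drugs were 0.31 ± 0.12 and 0.25 ± 0.12, with limma adjusted p of 0.408 and 0.598.

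**Figure D4:**
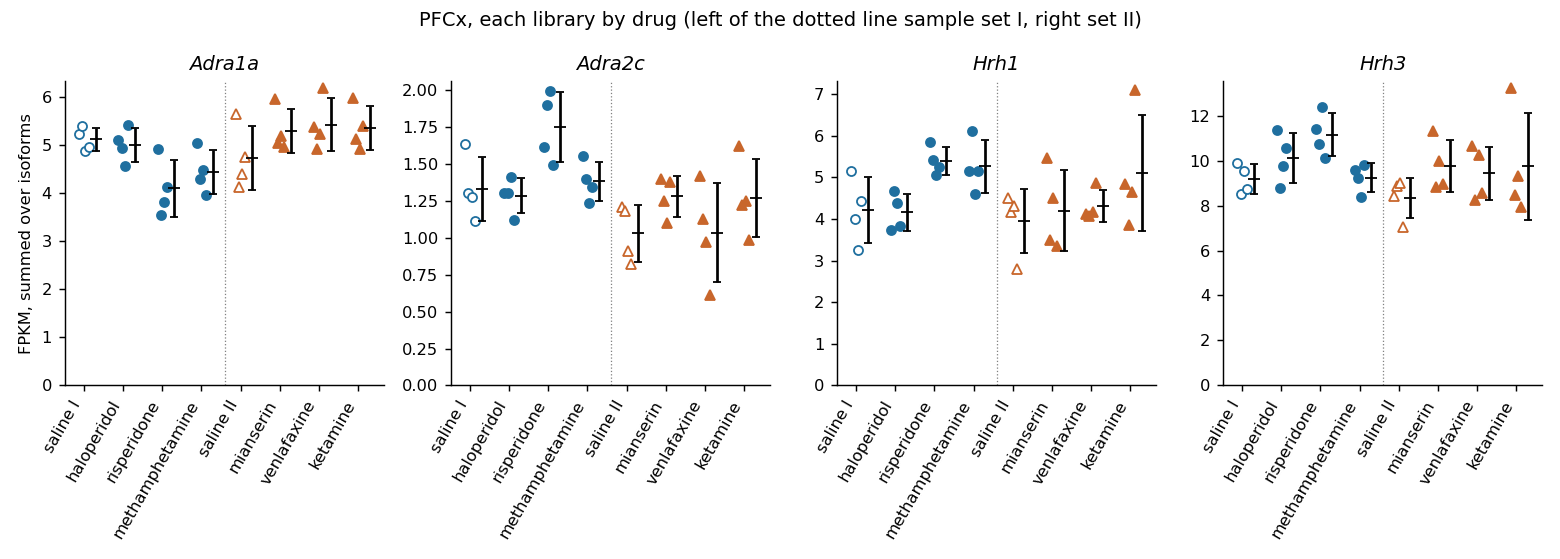
Summed FPKM (y axis, from 0) of Adra1a, Adra2c, Hrh1 and Hrh3 in each PFCx library by treatment, laid out as for the NAc. The 4 risperidone libraries of Hrh3 lie at 10.1 to 12.4 FPKM, above the saline libraries of both sets.

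Adrb1 in the PFCx gave the largest difference of either sign, after venlafaxine, at 1.91, 2.94, 3.11 and 3.46 FPKM against 3.11 to 4.76 after saline. Below the lowest saline library lay 3 of 4 libraries, 1 of them by less than 0.01 FPKM. The log2 difference was −0.35 ± 0.11 and the limma adjusted p 0.428. Against saline set II the log2 difference was −0.34 ± 0.13, and the exact permutation test gave p = 0.143. After risperidone Adrb1 was at 3.04 to 3.41 FPKM, below saline set I at 3.54 to 4.24 FPKM with 3 of 4 libraries inside the range of all saline libraries and 1 below it. Hrh3 and Adrb1 after risperidone were the 2 of 54 PFCx pairs without overlap within a set, where 5.22% of all pairs had none, and Hrh3 the 1 of 54 against all saline, where 1.05% had none. Over both tissues the two-sided exact permutation test gave an unadjusted p under 0.05 for 6 NAc and 10 PFCx pairs of 54 against all saline, where 10.9% and 7.27% of all pairs had one. Against the same sample set it did so for 3 and 2 of 54, where 3.59% and 5.22% of all pairs had one.

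The intervals give the differences that remained possible for a single pair, on the log2(FPKM + 1) scale only. That scale understates the change of low genes, so a narrow interval of a low gene can still hold a large fold change. The intervals were not adjusted for the number of pairs. Against saline of the same set, the 95% confidence intervals of the 54 log2 differences stayed within −0.44 and 0.70 in the NAc and within −0.59 and 0.59 in the PFCx. The test of whether a drug effect differed between tissues called 0 of 54 pairs by limma, where 0.0873% of all tests were called. Unadjusted, 8 of 54 had p under 0.05, where 12% of all tests did, with the lowest p, 0.0058, for Adrb1 after risperidone, at a difference of 0.42 ± 0.15.

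**Figure D5:**
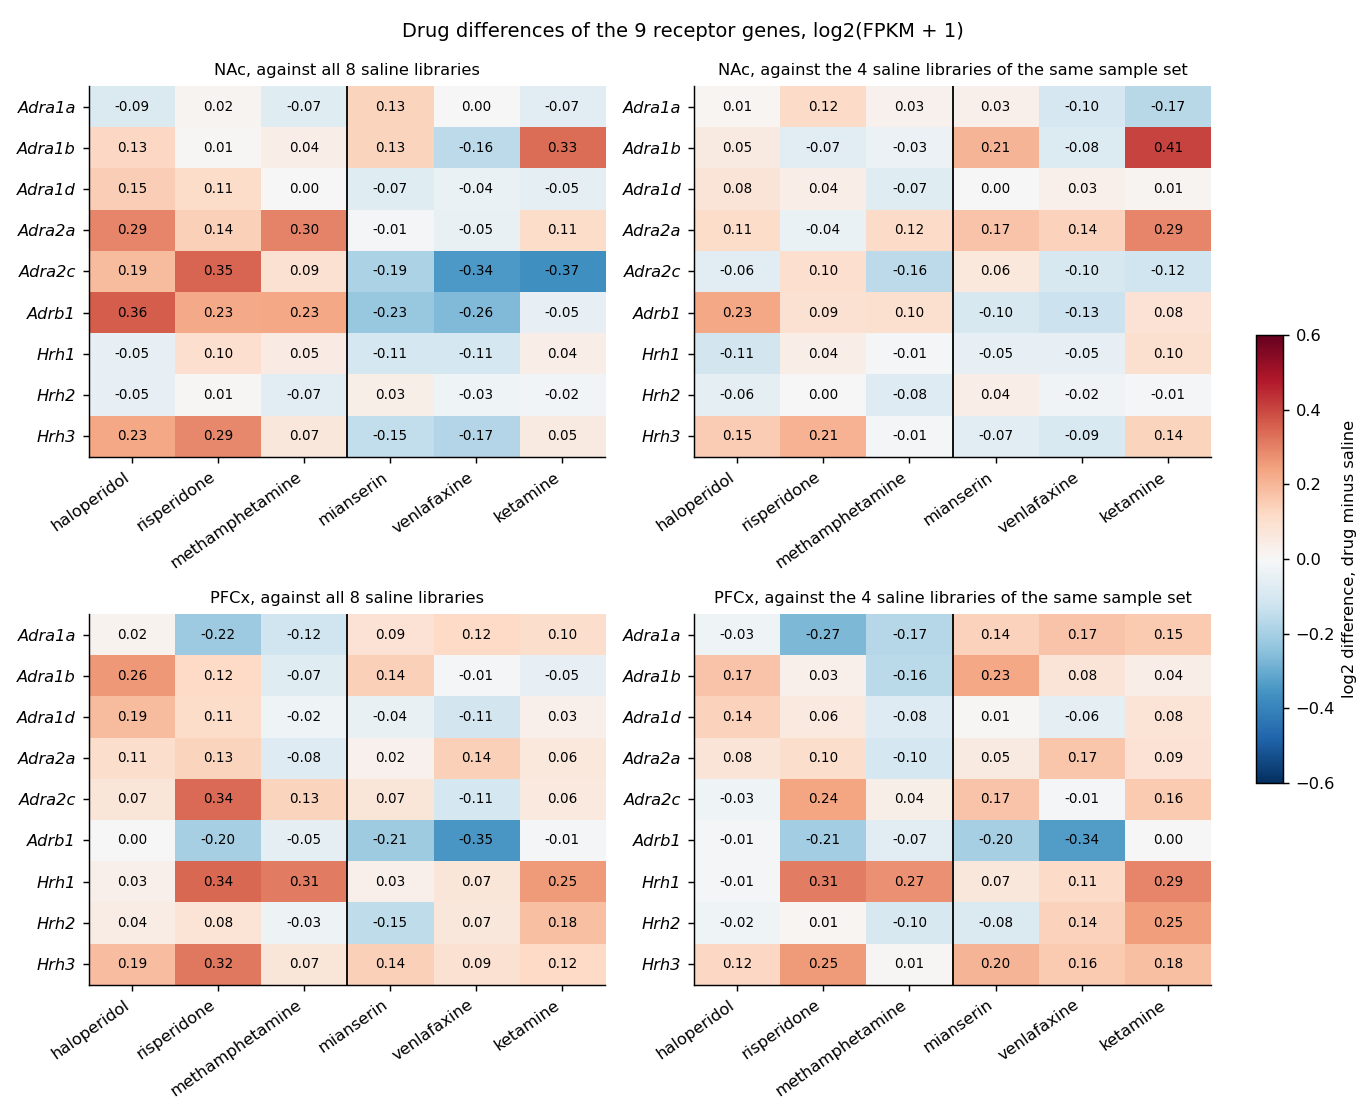
Log2 difference (drug minus saline, on log2(FPKM + 1)) of the 9 genes after each drug, in the NAc (top) and PFCx (bottom), against all 8 saline libraries (left) and the 4 of the same sample set (right), with set I drugs left of the line in each panel. In the NAc against all saline, Adra2c runs from 0.35 after risperidone to −0.37 after ketamine.

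The calls in the NAc moved with the saline set used as control. With saline I as the only control, 8 of the 27 pairs with set II drugs were called, 7 lower and 1 higher (background 29.7%), and 0 of the 27 with set I drugs (background 0.158%). With saline II as the only control, 9 of the 27 pairs with set I drugs were called, all of them higher (background 25.8%), and 0 of the 27 with set II drugs (background 0.412%). Both shares of calls across sets lay near their background, but their directions did not follow that of all genes. With saline I, most calls of all genes for set II drugs were higher (8542 higher and 2439 lower after mianserin). With saline II, most for set I drugs were lower (2729 higher and 7653 lower after haloperidol). Among genes with a mean of at least 1 FPKM, 500 were higher and 1116 lower in NAc saline set II than in set I. In the PFCx, saline I gave 0 of 27 calls with set II drugs (background 2.92%) and 0 of 27 with set I drugs (background 0.0882%). Saline II gave 2 of 27 with set I drugs (background 10.8%), Hrh3 and Adra2c after risperidone, and 0 of 27 with set II drugs (background 1.29%).

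Of the transcripts, 6 of 23 passed the test of any drug effect in the NAc against all saline (background 11.6%) and 0 of 23 in the PFCx (background 1.12%). Against saline of the same set, 0 of 23 did so in both tissues, where 0.645% and 0.484% of all transcripts were called. The 6 were the single transcripts of Adra2c and Adrb1, the main Hrh3 form, ENSMUST00000067258 of Adra1b, and ENSMUST00000088987 and ENSMUST00000160780 of Hrh1. The Adra1b form lay near 0 in the NAc, at a mean of 0.0218 FPKM after saline. The 2 Hrh1 forms were at 0.234 and 0.425 FPKM there.

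Another 3 receptor genes of these families were rare. Adra2b was at 0.459 ± 0.129 FPKM in the NAc and 0.135 ± 0.045 in the PFCx (SD, n = 8 each), Adrb3 at 0.186 and 0.649, and Hrh4 at 0.0587 and 0.143 FPKM on average. All 3 differed between tissues by limma, where 33.9% of all genes did. Adra2b was higher and the other 2 were lower in the NAc, with a median log2 difference of −0.11. Of these 3, Hrh4 was called for a drug effect in the NAc, at an adjusted p of 0.00263, and it was 0.964 against the same set.

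Of 13 genes for the synthesis and clearance of noradrenaline and histamine, 3 were higher and 3 lower in the NAc, with a median log2 difference of −0.11. Of all genes 7.16% were higher and 26.8% lower by limma, with a median of −0.10, and that split depended on the scaling. Th, which encodes tyrosine hydroxylase, was higher (1.26 ± 0.29 against 0.456 ± 0.10 FPKM, SD, n = 8 each), and Hnmt, which encodes the enzyme that methylates histamine, was lower (3.56 ± 0.68 against 5.38 ± 1.57 FPKM). Of 10 G protein α subunit genes 1 was higher and 4 were lower, with a median of −0.09. Gnal, the subunit that couples striatal receptors to adenylyl cyclase, differed by 2.04 ± 0.06 on the log2 scale.

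Of 21 effector enzymes and channels 1 was higher and 13 were lower, with a median of −0.25. The shares over all genes were again 7.16% higher and 26.8% lower. Adcy5, the main striatal adenylyl cyclase, was at 65.7 ± 6.7 against 9.48 ± 1.47 FPKM. Adcy1, another adenylyl cyclase gene, was lower by a log2 difference of −1.72 ± 0.09, and the potassium channel genes Kcnj6 and Kcnj9 by −1.35 ± 0.13 and −1.31 ± 0.10. Of 9 tested genes for receptor desensitization 1 was higher and 5 were lower, with a median of −0.19.

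In these 5 lists the test of any drug effect in the NAc called 1 of 3, 6 of 13, 4 of 10, 5 of 21 and 5 of 9 genes against all saline, where 36.9% of all genes were called. The lowest adjusted p were 1.17e-05 for Rgs2, 0.000447 for Gnaz, 0.000672 for Hdc, 0.00166 for Gnai1 and 0.0017 for Grk6. Against the same sample set Rgs2 alone, a regulator of Gq signalling, was called among them in the NAc (adjusted p = 0.0452), where 1.63% of all genes were. In the PFCx Adrbk2, Adcy9 and Kcnj3 were called against all saline (0.00781, 0.0317 and 0.0425), where 3.34% of all genes were, and none of the tested genes in these lists against the same set, where 1.45% were.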

How the data were processed

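The authors aligned single-end Ion Torrent reads with TopHat2 2.0.1, followed by Tmap, and estimated FPKM per Ensembl transcript on GRCm38 (mm10) with Cufflinks 2.2.1 (versions from the submitters' processing notes). The deposited table of each library gives FPKM (fragments scaled to transcript length and to the mapped fragments of the library) and, as unscaled signal, the read coverage per transcript. It holds no read counts. The Cufflinks options and strand setting are not given in the sources used here. The replicate and treatment of each library came from the labels.

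FPKM was summed over the transcripts of each gene. Genes or transcripts with a mean of at least 0.1 FPKM in either tissue were tested on log2(FPKM + 1) with limma 3.58.1 in R 4.3.3, with Benjamini-Hochberg adjustment over all of them and a threshold of 0.05. Tissues were compared in the 16 saline libraries, any drug effect with a moderated F over 6 differences from saline within the 32 libraries of a tissue, and its difference between tissues in all 64. Exact permutation tests used scipy 1.17.1. Background shares are of all genes or transcripts tested. The aligned bases of a library were taken from the median of coverage divided by FPKM in long transcripts (2000 bases or more) at 5 FPKM or more, and scaled coverage is coverage divided by that depth. The limma fits of the tissue difference and of the drug effect in each tissue against all saline were checked on simulated data, with mianserin as the changed drug. Fits against same-set saline, between saline sets, of the drug effect between tissues, or with a block or trend were not checked that way.

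The 9 genes, the pathway and marker lists and the tests were chosen with earlier results of these data known. Named were all 9 genes and their transcripts that passed the filter. Over the 5 pathway lists, the 5 genes with the largest tissue difference and the up to 5 with the lowest adjusted p of a drug effect per tissue were named, besides Th and Hnmt, which were chosen after their values were seen, and 3 further receptor genes. 1 gene of the lists is not reported here. For each of the 9 genes the 2 most similar genes over the libraries were also named. Alternatives tried were another pseudocount (0.1), no filter or a minimum of 1 FPKM, scaling to the same 75th percentile, a mean-variance trend, the replicate number as a block, either saline set alone, same-set saline, only transcripts with complete status, and leaving out each library. Scaled coverage, alone and with same-set saline, and a replicate block within each sample set were added after seeing the data. Replicate numbers were taken to pair libraries where the deviations from group means of every same-numbered pair correlated by over 0.1. This held within NAc set I (24 of 24 pairs, mean r 0.222, against −0.0739 for different numbers). It did not hold within PFCx set I (23 of 24, lowest 0.0363), NAc set II (16 of 24) or PFCx set II (13 of 24), over all groups (62 of 112 in the NAc, 48 of 112 in the PFCx) or across tissues (8 of 32). The mean r within PFCx set I was still 0.331, against −0.0993 for different numbers, and so above that of NAc set I. The rule thus does not show the PFCx set I libraries to be unpaired, and the main tests used no pairing.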

Additional observations from a re-analysis of the deposited data

Results flagged for a closer look

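In 7 of 126 groups of libraries the highest library of a receptor gene stood further from the next one than Dixon's 95% limit allows, where chance gives about 1 in 20. Adra1b in the NAc was at 1.02 FPKM in methamphetamine replicate 1, with the next library at 0.414, and at 0.787 FPKM in mianserin replicate 1, with the next at 0.591. Adra1d in the NAc was at 0.594 FPKM in saline I-2, with the next saline library at 0.196. Adrb1 in the NAc was at 2.70 FPKM in ketamine replicate 3, with the next at 1.79. Hrh1 in the PFCx was at 4.87 FPKM in venlafaxine replicate 4, with the next at 4.16. Hrh2 in the PFCx was at 1.35 FPKM in saline I-2, with the next saline library at 1.05, and at 1.43 FPKM in venlafaxine replicate 1, with the next at 1.01.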

How the results depend on the processing

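The tissue count of 8 genes was 7 or 8 under every alternative, with Hrh2 the gene lost, and no called value changed sign. For any drug effect, the NAc count of 3 was 5 with scaled coverage (Adra1a and Hrh1 added), 0 against the same sample set and 0 for both together, and the PFCx count of 0 was 1 with a minimum of 1 FPKM, with 75th percentile scaling and with either saline set alone, and 2 with the replicate block (Adra1a and Adra2c). Single pairs in the NAc, 0 called, became 1 with a minimum of 1 FPKM (Hrh3 after risperidone), 8 with saline I and 9 with saline II, those in the PFCx, 0 called, 1 with the replicate block and 2 with saline II, and the difference between tissues, 0 called, 1 with saline I and 2 with saline II. The 2 calls between the saline sets became 1 with a minimum of 1 FPKM, 75th percentile scaling, a trend or scaled coverage, and 0 with the replicate block. The 14 transcripts called between tissues became 8 in saline set II alone, the 6 with a drug effect in the NAc 0 against the same set, also with scaled coverage, and the 24 exact tests under 0.05, of 117, became 13 against the same set. Leaving out 1 library gave 8 to 8 genes between tissues, 3 to 4 and 0 to 1 with a drug effect in the NAc and PFCx (Adra1b without ketamine 2, Adra1a without risperidone 1), 0 to 2 and 0 to 1 single pairs, 0 to 0 differences between tissues, 0 to 2 genes between saline sets, 13 to 15 transcripts between tissues, 5 to 7 and 0 to 0 with a drug effect, and 20 to 28 exact tests. Single pairs called that way, besides those given with their values, were Hrh3 in the NAc after haloperidol without saline I-1 (adjusted p = 0.0366) and after risperidone without saline I-1 (0.00993) or I-3 (0.0326). The cause of these changes was not tested. The replicate block gave 8 genes between tissues. Within the sample set (chosen after seeing the data, same-set saline) it called 0 genes and 0 transcripts for a drug effect and 0 of 54 pairs in either tissue, 0 differences between tissues, and so changed no call of the same-set tests, with unadjusted p under 0.05 for 5 NAc and 15 PFCx pairs (8.17% and 10.9% of all tests).

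The tables hold no counts, so no counting interval is given, and a level under about 1 FPKM rests on little coverage. The ratio of FPKM to scaled coverage of low genes differed between NAc set I and the other 48 libraries, which touches Adra1b, Adra1d and Hrh1 most.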

Other observations

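FPKM and scaled coverage of the same gene differed in some libraries more than in others. In the saline and drug libraries of NAc set I, genes at a scaled coverage of 0.03 to 0.1 had a median ratio of FPKM to coverage of 1.16, and in NAc set II of 3.80. Among the receptor genes the ratio in NAc set I and set II was 0.999 and 2.62 for Adra1d and 1.13 and 2.58 for Adra1b. It was 0.964 and 1.68 for Hrh1, and 1.02 in both sets for Hrh3. With scaled coverage the higher level of Adra1d in the PFCx was 7.17-fold in saline set I and 27.9-fold in set II, and that of Adra1b 4.37-fold and 13.6-fold.

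The genes with the pattern most like each receptor gene, by Pearson's r of log2(FPKM + 1) over the 64 libraries among 15524 genes, are given as a description, since the libraries share tissues and sample sets. They were Col5a1 (r = 0.924) and Trbc2 (0.924) for Adra1a, Map3k9 (0.963) and Grm2 (0.963) for Adra1b, and Lmo4 (0.974) and Cckbr (0.971) for Adra1d. For Adra2c they were Sowaha (0.972) and Slc32a1 (0.96), the transporter that loads GABA into vesicles, and for Adrb1 Acot7 (0.888) and Epn1 (0.886). For Hrh1 they were Dtx4 (0.967) and Dkk3 (0.966), for Hrh2 Napepld (0.762) and Unc13b (0.749), and for Hrh3 Hpca (0.915) and Dapk1 (0.912). Adra2a had no close match, with Gm10358 (0.576) and Gm11460 (0.575) highest.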
